A study of Mus musculus with 24 samples.

Results

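Retinal gene expression was compared between CAST/EiJ and PWK/PhJ, a pair of wild-derived inbred mouse strains, with the 3 libraries labelled for each, 6 of the 24 libraries in the series. The whole series measured total RNA, depleted of ribosomal RNA, in retinas of 8 inbred strains at postnatal day 28, to relate gene expression to contrast perception and to the development of refraction. All mice were wild type and 28 days old, and the labels name no treatment. CAST/EiJ derives from the subspecies Mus musculus castaneus and PWK/PhJ from Mus musculus musculus. The study treats the 3 libraries of a strain as biological replicates. The p-values set the difference between strains against the spread between libraries of a strain, estimated partly from all genes tested.

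The retina turns light into nerve signals through rods, which serve dim light, and cones, which serve bright light and colour. Photoreceptors signal through ribbon synapses to bipolar cells, horizontal and amacrine cells shape that signal, and retinal ganglion cells send it to the brain. Inbred strains of different subspecies differ at a large number of sequence sites, in regulatory regions as well as in genes, and in the copies of some gene families.

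Values are cpm, read counts scaled to the total reads of each library. From the size of a single read, the CAST/EiJ libraries held 72972000 to 77886000 reads and the PWK/PhJ libraries 58627000 to 70453000, so 3 reads corresponded to 0.0385 to 0.0512 cpm. The correlation across the 15693 genes tested was 0.996 to 0.997 between libraries of the same strain and 0.960 to 0.965 between strains, as a description, since genes are not independent replicates. Xist, the RNA that coats the inactive X chromosome, was at 0.123, 9.71 and 1046 cpm in CAST/EiJ and 0.214, 1081 and 0.341 cpm in PWK/PhJ. The Y-linked gene Ddx3y was at 35.0, 34.4 and 0.0001 cpm in CAST/EiJ and 34.9, 0.0172 and 30.9 cpm in PWK/PhJ. Xist was high and Ddx3y near 0 in CAST/EiJ replicate 3 and PWK/PhJ replicate 2, and Ddx3y was high in the other 4 libraries, so each strain had 1 library of the first kind. CAST/EiJ replicate 2 had Ddx3y at the level of replicate 1 together with an Xist value between the low and the high libraries. Genes on X and Y were left out of the comparison.

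Lens genes were higher in PWK/PhJ. Cryaa, a crystallin that makes up much of the lens fibre cell, was at 9.20, 1.99 and 8.93 cpm in CAST/EiJ and 26.7, 17.8 and 36.0 cpm in PWK/PhJ. All 3 PWK/PhJ libraries were above all 3 CAST/EiJ libraries, and CAST/EiJ replicate 2 was the lowest of the 6. The call of Cryaa was lost without a filter on low values and with all 24 libraries in the fit. The 20 lens genes of the list, of which Cryaa was the most abundant, summed to 25.5, 7.53 and 27.1 cpm in CAST/EiJ and 96.5, 61.9 and 113 cpm in PWK/PhJ. All 14 that reached 0.5 cpm on average and were tested were called higher in PWK/PhJ (100% called, against 27.1% of all genes). Of these, 10 were at least 2-fold higher, against 1.73% of all genes. The median log2 difference was -1.23, and 0 of the 14 passed when the spread was estimated over all 24 libraries. In the other 6 strains the mean sum ranged from 16.0 to 829 cpm, and in each of the 2 strains with the highest mean 1 library carried it, with 22.5, 2441 and 23.4 cpm in NOD/ShiLtJ and 74.6, 2012 and 46.0 cpm in 129S1/Svlmj. The part of this lens signal in the results that follow was not tested. Of the blood list, 2 genes could be tested and 0 passed, or 2 higher in PWK/PhJ without PWK/PhJ replicate 2. Of 10 tested genes of the pigment epithelium list, 1 was higher in CAST/EiJ and 4 in PWK/PhJ (50% called), or 3 and 2 without PWK/PhJ replicate 2, and 2 were higher in PWK/PhJ without CAST/EiJ replicate 2. The 4 became 0 with all 24 libraries in the fit, and 2 without a filter on low values or with Benjamini-Hochberg adjustment.

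Of 28802 genes, 992 lay on X or Y and 15693 of the rest had a mean of at least 0.5 cpm over the 6 libraries and were tested. Reads of both strains were aligned to the reference of C57BL/6J, and what this does to the values of single genes was not tested. With limma on log2(cpm + 1) and a Storey q-value under 0.01, 7046 genes (44.9%) differed, 2795 (17.8%) higher in CAST/EiJ and 4251 (27.1%) higher in PWK/PhJ. Most differences were small. The median absolute log2 difference was 0.36 in the genes called and 0.17 in all genes tested, and 4990 of the called genes (70.8%) differed by less than 0.5. A difference of at least 2-fold was called in 548 genes (3.49%), 276 (1.76%) higher in CAST/EiJ and 272 (1.73%) higher in PWK/PhJ. The 3 values of CAST/EiJ did not overlap the 3 of PWK/PhJ in all 548. The same held for 6916 of the 7046 called genes and for 8838 (56.3%) of all genes tested. Most genes named below were picked with lack of overlap as a condition, so it is only a description there. The fold is of cpm + 1, which for low values is less than the fold of cpm. With 0.1 added in place of 1 there were 1053 genes past 2-fold, 492 higher in CAST/EiJ and 561 in PWK/PhJ. Without a fold limit, 39.7% of called genes were higher in CAST/EiJ, a share that became 49.1% with median-ratio scaling and 50.2% with quantile normalization, so the excess of genes higher in PWK/PhJ depended on the scaling. For each gene list below, the share called in either direction stands beside the counts, to be read against the 44.9% of all genes, and a share near that is not a result about the list. The median log2 difference of all genes tested was -0.04.

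**Figure D1:**
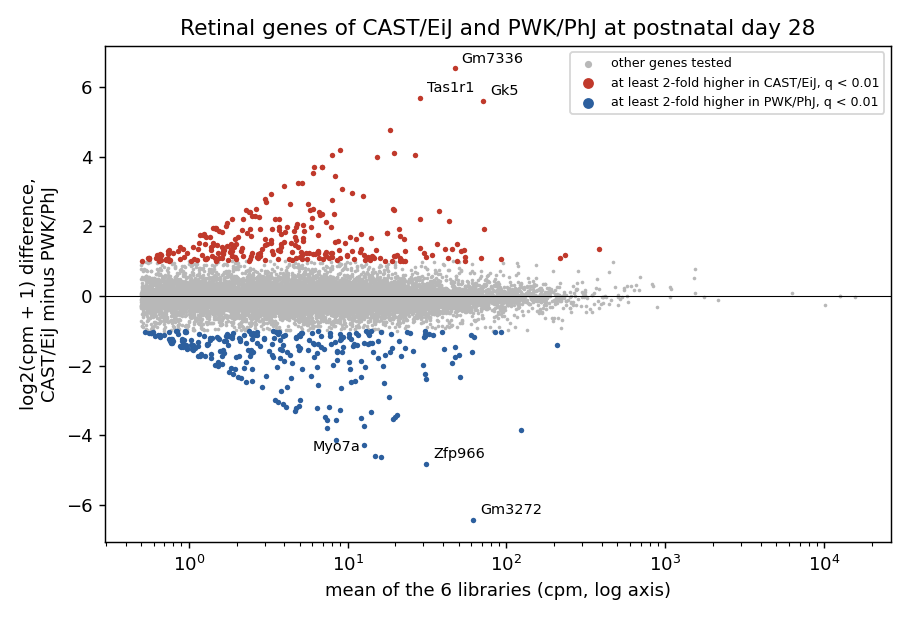
Log2(cpm + 1) difference, CAST/EiJ minus PWK/PhJ, against the mean of the 6 libraries in cpm on a log axis, 1 point for each of the 15693 genes tested. Red points are the 276 genes at least 2-fold higher in CAST/EiJ and blue points the 272 at least 2-fold higher in PWK/PhJ, and grey points are the other genes.

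Most of the cone genes tested were higher in PWK/PhJ. Of 10 cone phototransduction genes tested, 7 were higher in PWK/PhJ and 0 in CAST/EiJ (70% called), with a median log2 difference of -0.42 against -0.04 over all genes, and 6 were called under either other scaling. Opn1sw, the short-wavelength cone opsin, was at 65.0, 57.7 and 57.8 cpm in CAST/EiJ and 120, 126 and 126 cpm in PWK/PhJ. All CAST/EiJ values were below all PWK/PhJ values, with a log2 difference of -1.03 (SE 0.056, limma q = 2.51e-09). Cngb3, a subunit of the cone channel that cyclic GMP opens, was at 15.7, 14.2 and 16.6 cpm in CAST/EiJ and 27.5, 26.8 and 26.5 cpm in PWK/PhJ. The groups did not overlap here either, with a difference of -0.76 (SE 0.061, limma q = 1.21e-07). Cnga3, the partner subunit of that channel, was at 2.34, 2.38 and 2.13 cpm in CAST/EiJ and 5.14, 4.06 and 3.73 cpm in PWK/PhJ. The lowest PWK/PhJ library was still above the highest CAST/EiJ library, and the difference was -0.69 (SE 0.094, limma q = 1.7e-05). Kcnv2, a photoreceptor potassium channel subunit and the most abundant member of the list, did not pass, with 183, 192 and 197 cpm in CAST/EiJ and 218, 204 and 198 cpm in PWK/PhJ. Gnat2 and Pde6h did not pass either, with means of 35.7 and 31.2 cpm in CAST/EiJ and 37.9 and 30.8 cpm in PWK/PhJ. In the other 6 strains, means were 93.0 to 146 cpm for Opn1sw, above CAST/EiJ. For Cngb3 they were 10.1 to 14.4 cpm, below both CAST/EiJ and PWK/PhJ. In bulk tissue, fewer cells of a type and less RNA in each cell cannot be told apart. For Opn1sw, 15.5% of the exon bases overlap a gene on the opposite strand, and whether the counting used strand is not given in the sources used here.

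Of 19 rod phototransduction genes tested, 8 were higher in CAST/EiJ and 0 in PWK/PhJ (42.1% called, against 44.9% of all genes), with a median of 0.10, and the 8 became 4 without a filter on low values, 9 with median-ratio scaling, 5 with quantile normalization, which also put 1 higher in PWK/PhJ, and 5 without CAST/EiJ replicate 1. Gngt1, the gamma subunit of rod transducin, was at 525, 513 and 591 cpm in CAST/EiJ and 361, 344 and 304 cpm in PWK/PhJ. Every CAST/EiJ library was above every PWK/PhJ library, and the difference was 0.69 (SE 0.071, limma q = 1.36e-06). Guca1a, an activator of guanylate cyclase that responds to calcium, was at 166, 162 and 172 cpm in CAST/EiJ and 140.5, 129 and 124 cpm in PWK/PhJ, again without overlap. Pde6a, a catalytic subunit of the rod phosphodiesterase, had a difference of 0.32 (SE 0.052, limma q = 7.26e-05), which was no longer called with quantile normalization. Whether rods and cones differ from each other in their response to strain was not tested.

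The starts of the called photoreceptor genes Gngt1, Guca1a and Opn1sw are shown. Gngt1 and Guca1a are the 2 called rod genes whose promoters held the motif described next, and those of Gnb1, Grk1 and Pde6b did not hold it. The letters TAATCC, the core recognised by the photoreceptor factor CRX, were searched on both strands in the window from 250 bases before to 50 bases after each start, in promoters of RefSeq on GRCm38.p6, and the motif was chosen after the expression values were seen. Of 32851 promoters of 300 bases, 2320 (7.06%) held it. Promoters were found for 5 of the 8 called rod genes, and 2 of these 5 promoters held it. For 3 of the 7 called cone genes 5 promoters were found, and 0 held it. Capitals mark the motif in the rod genes Gngt1 (chr6:3993758-3994057, plus strand) and Guca1a (chr17:47400557-47400856, minus strand), and the cone opsin Opn1sw (chr6:29380464-29380763, minus strand) has none in this window. A match is a description of letters in the reference genome and not of a bound site in either strain.
Gngt1: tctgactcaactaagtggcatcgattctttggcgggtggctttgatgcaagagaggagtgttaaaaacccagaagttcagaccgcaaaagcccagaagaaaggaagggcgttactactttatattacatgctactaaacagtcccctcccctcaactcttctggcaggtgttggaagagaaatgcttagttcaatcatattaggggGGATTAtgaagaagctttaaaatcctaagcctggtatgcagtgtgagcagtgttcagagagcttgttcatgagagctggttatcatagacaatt
Guca1a: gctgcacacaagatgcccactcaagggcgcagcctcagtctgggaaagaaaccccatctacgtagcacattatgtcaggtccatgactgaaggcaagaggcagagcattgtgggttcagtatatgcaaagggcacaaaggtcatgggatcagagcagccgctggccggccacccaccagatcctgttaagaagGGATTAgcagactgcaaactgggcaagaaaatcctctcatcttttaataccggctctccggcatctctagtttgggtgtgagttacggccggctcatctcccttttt
Opn1sw: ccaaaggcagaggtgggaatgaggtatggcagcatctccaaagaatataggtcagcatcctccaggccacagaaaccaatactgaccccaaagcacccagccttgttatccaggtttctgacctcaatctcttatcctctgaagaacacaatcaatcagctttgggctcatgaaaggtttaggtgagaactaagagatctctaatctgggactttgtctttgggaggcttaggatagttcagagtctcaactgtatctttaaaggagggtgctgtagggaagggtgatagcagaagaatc

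Among 17 tested genes of the photoreceptor outer segment, the stack of membrane discs that holds the pigment, 3 were higher in CAST/EiJ and 2 in PWK/PhJ (29.4% called), with a median of 0.03, and with quantile normalization there were 4 in each direction. Fscn2, an actin-bundling protein of photoreceptors, was at 26.3, 26.6 and 26.5 cpm in CAST/EiJ and 13.5, 13.0 and 12.2 cpm in PWK/PhJ. The CAST/EiJ values lay within a narrow range above all PWK/PhJ values, and the difference was 0.98 (SE 0.055, limma q = 3.83e-09). Rdh8, a retinol dehydrogenase of the visual cycle, went the other way at 14.8, 14.1 and 14.7 cpm in CAST/EiJ and 22.5, 22.5 and 21.0 cpm in PWK/PhJ, without overlap and with a difference of -0.57 (SE 0.055, limma q = 7.47e-07). Rbp3, which carries retinoids between photoreceptors and pigment epithelium, was lowest in CAST/EiJ replicate 3, with 853, 879 and 635 cpm in CAST/EiJ and 985, 943 and 988 cpm in PWK/PhJ, and its difference of -0.32 was no longer called under 6 of the 16 alternatives, median-ratio scaling among them. Rp1, a microtubule protein of the outer segment and the most abundant of the list, had overlapping ranges and a difference of 0.08 (SE 0.063, limma q = 0.0978), and with quantile normalization it was called in the opposite direction, at -0.30. Without PWK/PhJ replicate 1 or 2, 1 gene of the list was called higher in PWK/PhJ.

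At the photoreceptor ribbon synapse, 2 of 19 genes were higher in CAST/EiJ and 8 in PWK/PhJ (52.6% called), with a median of -0.12, with either other scaling 4 and 7, and without a filter on low values 0 and 5. The 2 became 0 without PWK/PhJ replicate 3 or CAST/EiJ replicate 1, and 1 without PWK/PhJ replicate 1 or 2 or CAST/EiJ replicate 3. Cplx3, a complexin of retinal ribbon synapses, was at 56.8, 55.2 and 53.1 cpm in CAST/EiJ and 84.6, 77.1 and 71.6 cpm in PWK/PhJ. All PWK/PhJ libraries were above all CAST/EiJ libraries, and the difference was -0.49 (SE 0.061, limma q = 7.45e-06). Cplx4, its close relative, and Dag1, a dystroglycan that anchors the synapse to bipolar cells, had differences of -0.43 and -0.48 in the same direction. Unc13b, a vesicle priming factor and the most abundant of the list, was at 408, 406 and 410.4 cpm in CAST/EiJ and 485, 483 and 470.4 cpm in PWK/PhJ, without overlap. In ON bipolar cells, which respond to light onset through the receptor mGluR6, 4 of 13 cascade genes were higher in CAST/EiJ and 5 in PWK/PhJ (69.2% called), a balance that became 5 and 4 with either other scaling, and 1 was called higher in CAST/EiJ without CAST/EiJ replicate 1 and 2 without PWK/PhJ replicate 2 or 3. Gpr179, an orphan receptor that holds regulators of the cascade at the dendrite, was at 43.6, 48.4 and 38.4 cpm in CAST/EiJ and 72.1, 73.1 and 83.1 cpm in PWK/PhJ. Its groups did not overlap, and its difference was -0.80 (SE 0.078, limma q = 8.44e-07). Rgs11, which speeds the end of the G protein signal, and Lrit3, which places the channel, differed by -0.45 and -0.42.

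Of 20 bipolar identity genes, 6 were higher in CAST/EiJ, 4 in PWK/PhJ (50% called), and the median of -0.01 turned positive with either other scaling. Lhx4, a transcription factor of cone bipolar cells, was at 10.8, 9.87 and 9.96 cpm in CAST/EiJ and 20.2, 21.5 and 20.3 cpm in PWK/PhJ. Each CAST/EiJ library was below each PWK/PhJ library, and the difference was -0.95 (SE 0.059, limma q = 9.59e-09). Lhx3, a related factor, differed by -0.64, and Prdm8, a factor needed for rod bipolar cells, was higher in CAST/EiJ by 0.50, with 29.1% of its exon bases overlapped by an antisense gene. Cabp5, a calcium-binding protein of bipolar cells and the most abundant of the list, had overlapping ranges and a difference of -0.08 (SE 0.066, limma q = 0.105).

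Of 19 amacrine genes, 3 were higher in CAST/EiJ and 8 in PWK/PhJ (57.9% called), with a median of -0.06, and with either other scaling 5 and 7. Without PWK/PhJ replicate 1 or 2, or CAST/EiJ replicate 1 or 2, 1 was called higher in CAST/EiJ. Chat, Slc18a3 and Slc5a7, genes of the cholinergic starburst amacrine cells, were among those higher in PWK/PhJ. Chat and Slc18a3 were named because their differences were among the largest of the list. The other members of the list were called in both directions or not called, and its median was -0.0077 with median-ratio scaling and -0.0046 with quantile normalization. No separate list of starburst genes was tested. Chat, which makes acetylcholine, was at 2.89, 2.80 and 2.68 cpm in CAST/EiJ and 5.09, 4.26 and 4.87 cpm in PWK/PhJ. Its groups did not overlap, and its difference was -0.60 (SE 0.076, limma q = 9.01e-06). Slc18a3, the vesicular transporter of acetylcholine that lies within the Chat gene, differed by -0.64, and Slc17a8, the glutamate transporter of another amacrine type, by -0.60. Pax6, a factor of amacrine cells and the most abundant of the list, had a difference of 0.09 (SE 0.05, limma q = 0.0491), which passed with either other scaling. Of 9 tested retinal neuropeptide genes, 5 were higher in PWK/PhJ and 1 in CAST/EiJ, or 0 without CAST/EiJ replicate 2 (66.7% called), with a median of -0.46. Cartpt, which encodes the CART peptide and was the most abundant of these, was at 14.0, 14.5 and 14.2 cpm in CAST/EiJ and 21.3, 21.9 and 19.5 cpm in PWK/PhJ. No value of one strain reached the range of the other, and the difference was -0.52 (SE 0.058, limma q = 2.85e-06). Penk, the enkephalin precursor, and Vip, the vasoactive intestinal peptide, differed by -0.74 and -0.61, and for Penk CAST/EiJ replicate 3 stood above the other 2 libraries of its strain, with 0.672, 0.642 and 1.57 cpm in CAST/EiJ and 2.54, 2.18 and 1.92 cpm in PWK/PhJ. The call of Penk was lost without a filter on low values and with all 24 libraries in the fit.

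The dopamine list, a transmitter system tied to light adaptation and eye growth, had 2 of 10 genes higher in CAST/EiJ and 5 in PWK/PhJ (70% called), with a median of -0.22, without a filter on low values 1 and 3, and 1 higher in CAST/EiJ without PWK/PhJ replicate 3 or CAST/EiJ replicate 1 or 3. Drd4, the dopamine receptor of photoreceptors and the most abundant member, was at 25.2, 25.8 and 21.9 cpm in CAST/EiJ and 35.2, 36.9 and 40.7 cpm in PWK/PhJ. All PWK/PhJ libraries were above all CAST/EiJ libraries, and the difference was -0.61 (SE 0.071, limma q = 3.98e-06). Slc18a2, the vesicular monoamine transporter, went the other way, at 2.69, 3.12 and 3.03 cpm in CAST/EiJ and 1.64, 1.81 and 1.63 cpm in PWK/PhJ, without overlap. Pts, an enzyme that makes the cofactor of tyrosine hydroxylase, was higher in PWK/PhJ, with a difference of -0.59. Of 9 horizontal cell genes, 1 was higher in CAST/EiJ, or 0 without PWK/PhJ replicate 1 or CAST/EiJ replicate 3, and 4 in PWK/PhJ (55.6% called), with a median of -0.07. Slc4a3, an anion exchanger, was at 32.1, 32.5 and 27.4 cpm in CAST/EiJ and 45.5, 46.4 and 50.4 cpm in PWK/PhJ, without overlap, and Sept4, a septin, and Onecut2, a factor of horizontal cells, differed by -0.63 and -0.31. Ndrg1, the most abundant of that list, had a difference of -0.15 (SE 0.053, limma q = 0.00851), which was lost under 11 of the 16 alternatives.

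Retinal ganglion cell genes were higher in PWK/PhJ. Of 18 tested, 14 were higher in PWK/PhJ and 0 in CAST/EiJ (77.8% called), with a median of -0.36, with either other scaling 12 and 0, and without a filter on low values 9 higher in PWK/PhJ. Nefl, the light neurofilament chain of ganglion cell axons and the most abundant of the list, was at 91.7, 91.3 and 90.1 cpm in CAST/EiJ and 137, 135 and 125 cpm in PWK/PhJ. The CAST/EiJ values lay close together below all PWK/PhJ values, and the difference was -0.53 (SE 0.05, limma q = 5.26e-07). Nefm, the medium chain, was at 16.9, 19.8 and 13.8 cpm in CAST/EiJ and 37.3, 28.0 and 28.3 cpm in PWK/PhJ, and its difference was -0.85 (SE 0.12, limma q = 2.06e-05). Nefh, the heavy chain, was at 17.2, 18.4 and 17.8 cpm in CAST/EiJ and 30.2, 27.8 and 27.8 cpm in PWK/PhJ. All 3 chains were thus lower in every CAST/EiJ library, although 32.8% of the exon bases of Nefl and 19.2% of those of Nefm are overlapped on the opposite strand, and Nefl shares 32.2% of its stretches of 31 bases with Nefm. Rbpms2, an RNA-binding protein of ganglion cells, was at 2.22, 2.10 and 2.24 cpm in CAST/EiJ and 3.84, 3.84 and 4.30 cpm in PWK/PhJ, without overlap.

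In Müller glia, the radial support cells of the retina, 4 of 20 genes were higher in CAST/EiJ and 7 in PWK/PhJ (55% called), with a median of -0.07. The 4 became 2 with all 24 libraries in the fit. Gfap, the intermediate filament that rises in stressed glia, was at 3.89, 2.85 and 4.67 cpm in CAST/EiJ and 6.82, 8.32 and 7.20 cpm in PWK/PhJ. Its groups did not overlap, and its difference was -0.83 (SE 0.12, limma q = 2.64e-05). Dkk3, a secreted protein related to Wnt inhibitors, and Apoe, a lipid carrier, differed by -0.63 and -0.62. Glul, glutamine synthetase and the most abundant of the list, did not pass, with 528, 499.5 and 548 cpm in CAST/EiJ and 555, 548 and 518 cpm in PWK/PhJ, though quantile normalization called it at -0.17. Of 8 tested genes of microglia and complement, 4 were higher in PWK/PhJ and 0 in CAST/EiJ (50% called), with a median of -0.19, and without a filter on low values 7 were higher in PWK/PhJ. C4b, a complement component, was at 1.25, 1.44 and 1.00 cpm in CAST/EiJ and 2.84, 3.84 and 3.42 cpm in PWK/PhJ, and 48.3% of its stretches of 31 bases also occur in C4a. C1qa, which starts the classical complement pathway, and Ctss, a protease of microglial lysosomes, differed by -0.38 and -0.62.

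Of 18 vessel genes, 2 were higher in CAST/EiJ and 6 in PWK/PhJ (44.4% called, against 44.9% of all genes), with a median of -0.14. The 6 became 3 with either other scaling and 2 without a filter on low values. Without PWK/PhJ replicate 2, or without CAST/EiJ replicate 1, 2 were called higher in PWK/PhJ, and without PWK/PhJ replicate 3, 3. Rgs5, a marker of pericytes, was at 6.85, 9.12 and 10.3 cpm in CAST/EiJ and 26.8, 30.4 and 27.7 cpm in PWK/PhJ. Every PWK/PhJ library was far above every CAST/EiJ library, and the difference was -1.60 (SE 0.11, limma q = 1.79e-08). Flt1, a receptor of the vascular growth factor VEGF, was higher in CAST/EiJ, with 26.0, 29.9 and 24.2 cpm in CAST/EiJ and 18.0, 18.1 and 19.6 cpm in PWK/PhJ. Kdr, the main VEGF receptor and the most abundant of the list, was also higher in CAST/EiJ, by 0.24, and Ly6c1, an endothelial surface protein, was lower there, by -0.45, with 46.8% of its stretches of 31 bases in other genes. In the pigment epithelium list, Tyrp1, an enzyme of melanin synthesis, was at 1.52, 1.25 and 1.41 cpm in CAST/EiJ and 3.19, 3.92 and 1.93 cpm in PWK/PhJ. The groups did not overlap, while PWK/PhJ replicate 3 was below the other libraries of its strain, and the difference was -0.72 (SE 0.14, limma q = 0.000351). That call was lost without a filter on low values and with all 24 libraries in the fit. Dct, another enzyme of that pathway, differed by -0.40, a call lost under 5 of the 15 alternatives in which it was tested, Krt18, a keratin, by 0.48, and Rgr, an opsin of the pigment epithelium and the most abundant of the list, had overlapping ranges and did not pass, but was called at 0.36 without PWK/PhJ replicate 2. Hbb-bs, a haemoglobin gene, overlapped between strains, with 6.97, 5.29 and 6.59 cpm in CAST/EiJ and 11.9, 3.39 and 7.85 cpm in PWK/PhJ, was called at -0.56 without the same library, and shares 54.4% of its stretches with Hbb-bt.

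**Figure D2:**
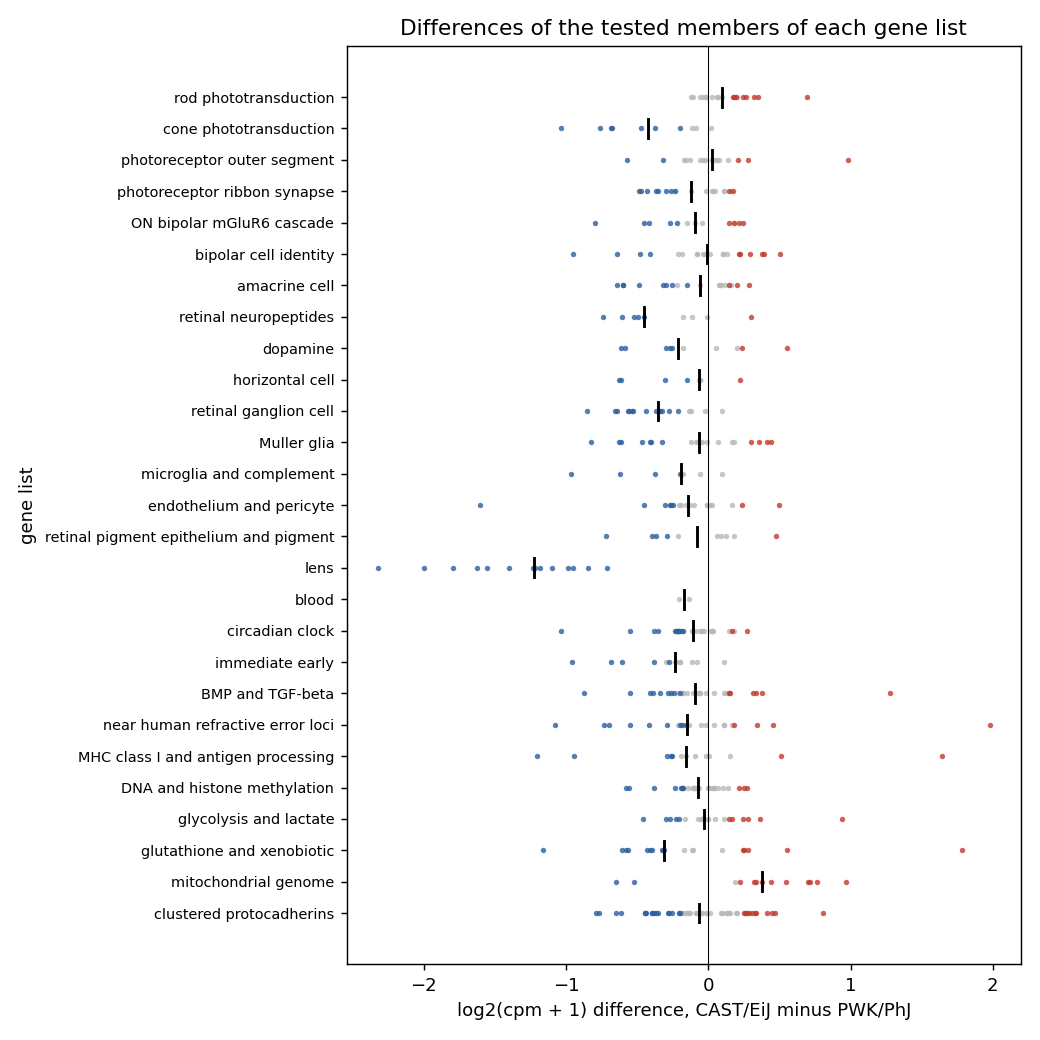
Log2(cpm + 1) difference, CAST/EiJ minus PWK/PhJ, for each tested member of 27 gene lists, with the list median as a black bar. Red points are genes called higher in CAST/EiJ, blue points genes called higher in PWK/PhJ and grey points genes not called, and the lens list lies to the left of 0.

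Of 28 tested clock genes, 12 were higher in PWK/PhJ and 2 in CAST/EiJ (50% called, against 44.9% of all genes), with a median of -0.11, and the 12 became 4 without a filter on low values, 7 with median-ratio scaling and 5 with quantile normalization, and 7 without CAST/EiJ replicate 2. The 2 became 0 without PWK/PhJ replicate 2 or CAST/EiJ replicate 1, and 1 without PWK/PhJ replicate 1 or CAST/EiJ replicate 2 or 3. Arntl2, a partner of the clock activator CLOCK, was at 0.343, 0.193 and 0.340 cpm in CAST/EiJ and 1.62, 1.55 and 1.75 cpm in PWK/PhJ. The groups did not overlap, and the difference was -1.03 (SE 0.073, limma q = 3.96e-08). Cry1, a repressor of the clock, and Hlf, an output factor, differed by -0.55 and -0.38, and the call of Hlf was lost without a filter on low values. Rorb, a nuclear receptor of photoreceptor development and the most abundant of the list, had a difference of 0.16 (SE 0.058, limma q = 0.00934), which was lost under 11 of the 16 alternatives. Of 13 immediate early genes, which respond within minutes to stimulation, 5 were higher in PWK/PhJ and 0 in CAST/EiJ (38.5% called, against 44.9% of all genes), with a median of -0.23. The 5 became 2 without a filter on low values, ranged from 2 without CAST/EiJ replicate 1 to 9 without CAST/EiJ replicate 2, and were 3 without any 1 of the PWK/PhJ libraries. Jun, a subunit of the factor AP-1, was at 6.65, 7.63 and 7.48 cpm in CAST/EiJ and 16.8, 12.3 and 16.3 cpm in PWK/PhJ, without overlap. Atf3, a stress factor, and Fosl2, another AP-1 subunit, differed by -0.69 and -0.38, the latter a call lost under 3 of the 15 alternatives in which it was tested, and Btg2, the most abundant of the list, did not pass.

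Signalling by BMP and TGF-beta, which patterns the eye and is studied in eye growth, had 6 of 29 genes higher in CAST/EiJ and 9 in PWK/PhJ (51.7% called), a balance that became equal with either other scaling. Bmp5, a ligand, was at 2.82, 2.27 and 3.11 cpm in CAST/EiJ and 0.428, 0.717 and 0.469 cpm in PWK/PhJ. The CAST/EiJ libraries were all above the PWK/PhJ libraries, and the difference was 1.28 (SE 0.097, limma q = 7.22e-08), although 46.7% of its exon bases are overlapped by an antisense gene. Grem1, a secreted antagonist of BMPs, was at 0.247, 0.295 and 0.261 cpm in CAST/EiJ and 1.34, 1.42 and 1.21 cpm in PWK/PhJ. It thus went the opposite way from Bmp5, without overlap, by -0.87 (SE 0.068, limma q = 8.85e-08). Bmp3, another ligand, differed by -0.55, and the receptor Bmpr2, the most abundant of the list, did not pass. Near human loci for refractive error, 4 of 22 genes were higher in CAST/EiJ and 9 in PWK/PhJ (59.1% called), with a median of -0.15, and 6 and 6 with median-ratio scaling. Lama2, a laminin chain of basement membranes, was at 8.68, 8.05 and 7.62 cpm in CAST/EiJ and 1.30, 1.30 and 1.33 cpm in PWK/PhJ. The values within each strain lay close together, and the difference was 1.98 (SE 0.071, limma q = 4.37e-11). Lrp2, the endocytic receptor megalin whose loss enlarges the eye, was at 8.72, 7.36 and 8.68 cpm in CAST/EiJ and 18.0, 19.6 and 17.8 cpm in PWK/PhJ. All 3 CAST/EiJ libraries were below all 3 PWK/PhJ libraries, and the difference was -1.07 (SE 0.071, limma q = 1.97e-08). Cyp26a1, which degrades retinoic acid, differed by -0.73, and Aplp2, the most abundant of the list, by -0.20, a call lost under 3 of the 16 alternatives.

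In the list for MHC class I and antigen processing, 2 of 13 genes were higher in CAST/EiJ and 5 in PWK/PhJ, or 3 without PWK/PhJ replicate 1 or CAST/EiJ replicate 1 (53.8% called), with a median of -0.16, and 4 were higher in CAST/EiJ without a filter on low values. Erap1, which trims peptides for MHC class I, was at 16.9, 17.2 and 18.9 cpm in CAST/EiJ and 5.09, 5.34 and 4.56 cpm in PWK/PhJ. It did not overlap between strains, and its difference was 1.64 (SE 0.07, limma q = 2.3e-10). H2-D1, a class I heavy chain, was at 1.31, 1.59 and 1.28 cpm in CAST/EiJ and 4.43, 4.45 and 4.68 cpm in PWK/PhJ, and H2-K1, another, differed by -0.94. These chains share sequence, with 26.9% of the stretches of 31 bases of H2-D1 and 22.8% of those of H2-K1 found in other genes. Of 28 genes of DNA and histone methylation, 3 were higher in CAST/EiJ and 7 in PWK/PhJ (35.7% called, against 44.9% of all genes), with a median of -0.07, with either other scaling 3 and 2, and without a filter on low values 1 and 3. Without PWK/PhJ replicate 1 or 2, or without CAST/EiJ replicate 3, 3 were called higher in PWK/PhJ, and 4 without PWK/PhJ replicate 3 or CAST/EiJ replicate 1. Without PWK/PhJ replicate 2 or CAST/EiJ replicate 1, 1 was called higher in CAST/EiJ. Dnmt3a, a DNA methyltransferase, was at 80.3, 80.9 and 64.3 cpm in CAST/EiJ and 111, 113 and 113 cpm in PWK/PhJ. Its CAST/EiJ replicate 3 was the lowest library, no value of CAST/EiJ reached PWK/PhJ, and the difference was -0.58 (SE 0.075, limma q = 9.97e-06). Mbd4, a DNA repair glycosylase, differed by -0.56, Kmt2a, a histone methyltransferase, had a difference of -0.38 (SE 0.12, limma q = 0.00539) that was lost under 8 of the 16 alternatives, and Kmt2c, the most abundant of the list, did not pass.

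Of the 13 protein genes of the mitochondrial genome, 10 were higher in CAST/EiJ and 2 in PWK/PhJ (92.3% called), with a median of 0.38, 10 and 2 with median-ratio scaling, 9 and 2 with quantile normalization, and higher in CAST/EiJ 6 when all 24 libraries shared the spread and 5 without a filter on low values. Without PWK/PhJ replicate 2, 1 was higher in PWK/PhJ. mt-Nd1, a subunit of respiratory complex I, was at 578, 558 and 728 cpm in CAST/EiJ and 346, 309 and 292 cpm in PWK/PhJ. The groups did not overlap, with CAST/EiJ replicate 3 the highest, and the difference was 0.97 (SE 0.09, limma q = 5.43e-07). mt-Co1, the core subunit of cytochrome oxidase and the most abundant of the list, was at 1873, 1847 and 2092 cpm in CAST/EiJ and 1172, 1182 and 1070 cpm in PWK/PhJ, and 63.9% of its stretches of 31 bases also occur in other annotated genes. mt-Nd2 differed by 0.71. In the other 6 strains, mt-Co1 had means of 2663 to 3488 cpm, so both CAST/EiJ and PWK/PhJ were below all of them. For mt-Nd1 and mt-Nd2 those means were 355 to 641 cpm and 73.6 to 180 cpm. CAST/EiJ lay within these 2 ranges and PWK/PhJ below them. Of 21 genes of glycolysis and lactate, 6 were higher in CAST/EiJ, 5 in PWK/PhJ (52.4% called), and the median of -0.03 turned positive with either other scaling. The 6 became 1 without a filter on low values, and the 5 became 3 with all 24 libraries in the fit. Aldoc, the aldolase of neural tissue, was at 159, 144 and 159.5 cpm in CAST/EiJ and 83.2, 81.3 and 74.6 cpm in PWK/PhJ. Every CAST/EiJ library was above every PWK/PhJ library, and the difference was 0.94 (SE 0.058, limma q = 9.57e-09). Slc2a3, a neuronal glucose transporter, differed by -0.46, Gapdh by 0.36, and Pkm, pyruvate kinase and the most abundant of the list, by 0.28. Without a filter on low values the calls of Gapdh and Pkm were lost, and that of Pkm also with quantile normalization. Of the stretches of Gapdh and Pkm, 28.1% and 34.7% occur in other genes.

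Of 19 tested genes for glutathione and xenobiotic metabolism, 5 were higher in CAST/EiJ and 10 in PWK/PhJ (78.9% called), with a median of -0.31 and the same counts with either other scaling. The 5 became 1 with all 24 libraries in the fit, and 3 without PWK/PhJ replicate 1 or CAST/EiJ replicate 3. Gstm7, a glutathione transferase of the mu class, was at 6.43, 6.29 and 6.67 cpm in CAST/EiJ and 1.30, 1.21 and 0.994 cpm in PWK/PhJ. The lowest CAST/EiJ library was well above the highest PWK/PhJ library, and the difference was 1.79 (SE 0.076, limma q = 2.25e-10). Gstp1, a transferase of the pi class, went the other way, at 4.86, 5.27 and 5.57 cpm in CAST/EiJ and 13.4, 13.2 and 12.3 cpm in PWK/PhJ, without overlap and by -1.16 (SE 0.067, limma q = 4.93e-09), and shares 38.5% of its stretches of 31 bases with Gstp2. Gsta4, of the alpha class, differed by -0.60, and Gstz1, the most abundant of the list, did not pass. Of 56 clustered protocadherins, adhesion proteins that give neurons an identity, 11 were higher in CAST/EiJ and 17 in PWK/PhJ (50% called), a balance that became 16 and 14 with either other scaling and 7 and 11 without a filter on low values, and the 11 became 7 without CAST/EiJ replicate 1. Pcdhb4 was higher in CAST/EiJ by 0.80, Pcdhb8 and Pcdha7 were lower by -0.77 and -0.79, with 74.6% of the stretches of Pcdha7 in other genes, and Pcdhgb5, the most abundant, did not pass, but did with either other scaling. Of 150 genes whose symbols mark a cytosolic ribosomal protein, pseudogenes included, 36 were higher in CAST/EiJ and 23 in PWK/PhJ (39.3% called, against 44.9% of all genes). Rpl14 was at 10.6, 9.89 and 12.3 cpm in CAST/EiJ and 1.26, 1.15 and 0.950 cpm in PWK/PhJ. The groups were far apart, and the difference was 2.49 (SE 0.087, limma q = 3.35e-11), although 30.7% of its stretches of 31 bases also occur in a pseudogene of it. Rps3a3, annotated as a pseudogene, differed by -3.21, with 78.4% of its stretches in other genes, and Rpl4, the most abundant of the list, did not pass.

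**Figure D3:**
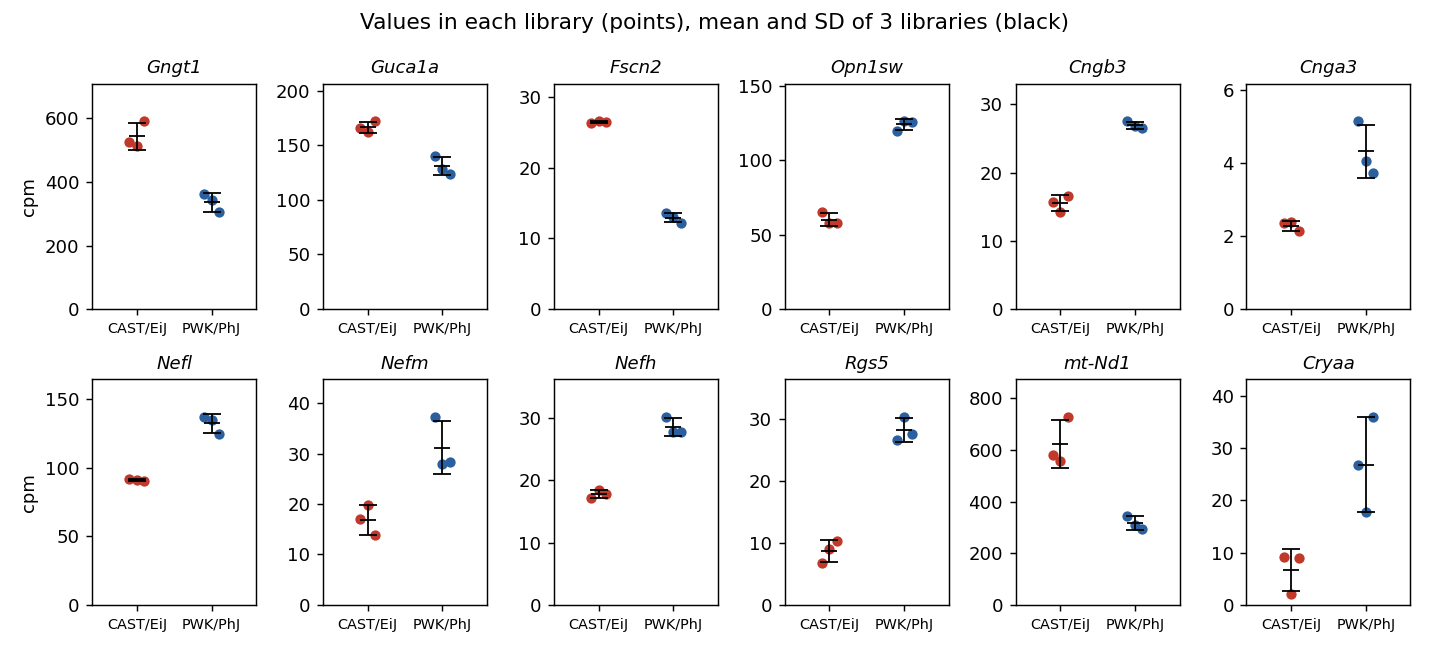
Values in cpm of 12 genes in each of the 6 libraries, with the mean and SD of the 3 libraries of a strain in black and each axis starting at 0. CAST/EiJ libraries are red and PWK/PhJ libraries blue. All but Nefl, the most abundant of its list, were named among calls without overlap, so the lack of overlap follows from that choice. Gngt1, Guca1a, Fscn2 and mt-Nd1 are higher in CAST/EiJ and the other 8 higher in PWK/PhJ.

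Tas1r1, a subunit of the umami taste receptor (chr4:152027914-152038568), was at 29.0, 68.7 and 74.2 cpm in CAST/EiJ and 0.0612, 0.0172 and 0.0711 cpm in PWK/PhJ. CAST/EiJ replicate 1 was lower than the other 2 libraries of its strain, all PWK/PhJ values were a few reads, and the difference was 5.68 (SE 0.25, limma q = 2.91e-10). Gk5, a member of the glycerol kinase family (chr9:96119362-96184608), was at 139, 142 and 142 cpm in CAST/EiJ and 1.73, 2.17 and 1.92 cpm in PWK/PhJ. The other 6 strains had means of 1.51 to 5.97 cpm, so that CAST/EiJ stood above all 7 other strains, and the difference was 5.60 (SE 0.061, limma q = 4.83e-16). Rtkn2, of the rhotekin family, was at 30.5, 27.9 and 31.3 cpm in CAST/EiJ and 0.978, 0.921 and 0.923 cpm in PWK/PhJ, and Gulo, the last enzyme of vitamin C synthesis, at 16.9, 15.9 and 15.7 cpm in CAST/EiJ and 0.734, 0.426 and 0.554 cpm in PWK/PhJ. Slc6a2, the noradrenaline transporter, was at 10.6, 10.5 and 9.28 cpm in CAST/EiJ and 0.0918, 0.205 and 0.227 cpm in PWK/PhJ. None of these overlapped between strains.

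Higher in PWK/PhJ, Myo7a, a myosin of photoreceptors and pigment epithelium whose loss causes deafness and retinal degeneration in Usher syndrome (chr7:98051060-98119524), was at 0.411, 0.372 and 0.313 cpm in CAST/EiJ and 34.5, 31.4 and 31.1 cpm in PWK/PhJ. Every CAST/EiJ library was below 1 cpm, the other 6 strains had means from 0.316 to 13.8 cpm, and the difference was -4.61 (SE 0.07, limma q = 1.76e-14). Pcdh15, a cadherin of another Usher type, was at 112, 124 and 106 cpm in CAST/EiJ and 309, 292 and 308 cpm in PWK/PhJ. The CAST/EiJ and PWK/PhJ values lay on either side of the means of the other strains, 165 to 183 cpm, and the difference was -1.40 (SE 0.059, limma q = 1.92e-10). Hfm1, a helicase of meiosis, was at 1.86, 2.26 and 2.56 cpm in CAST/EiJ and 35.8, 38.2 and 34.7 cpm in PWK/PhJ, and Spata1, a gene of spermatogenesis, at 1.22, 0.924 and 1.25 cpm in CAST/EiJ and 23.1, 24.4 and 21.6 cpm in PWK/PhJ. Catspere1 and Catspere2, accessory subunits of the sperm calcium channel, differed by -3.46 and -3.41, and these neighbours share 36.7% and 20.5% of their stretches of 31 bases with each other. The zinc finger genes Zfp966, Zfp973 and Zfp967 differed by -4.81, -4.28 and -3.55, and between 90.5% and 100% of their stretches occur in other genes.

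Among abundant genes past 2-fold, Ubn2, a subunit of a histone chaperone, was at 316, 332 and 330.5 cpm in CAST/EiJ and 140.2, 140.4 and 148 cpm in PWK/PhJ. CAST/EiJ also stood above the other 6 strains, whose means were 127 to 133 cpm, and the difference was 1.19 (SE 0.048, limma q = 1.25e-10). Vopp1, a vesicle protein, was at 114, 111 and 117 cpm in CAST/EiJ and 30.2, 29.3 and 29.2 cpm in PWK/PhJ. Here PWK/PhJ stood apart, since the other 6 strains had means of 109 to 167 cpm, and the difference was 1.91 (SE 0.047, limma q = 1.08e-12). Rsrp1, a serine and arginine rich protein, and Kif21b, a kinesin, were higher in CAST/EiJ by 1.09 and 1.06, and Prune2 was lower by -1.02.

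By log2(cpm + 1), the largest differences of all were in a pair of processed pseudogenes that resemble Gapdh. Gm7336 (chr7:51746647-51747878) was at 102, 86.6 and 94.4 cpm in CAST/EiJ and 0.0001, 0.0587 and 0.0333 cpm in PWK/PhJ. Gm3272 (chr8:92715747-92716975) was at 0.532, 0.408 and 0.406 cpm in CAST/EiJ and 125, 122 and 121 cpm in PWK/PhJ. They went in opposite directions, by 6.53 (SE 0.07, limma q = 4.83e-16) and -6.42 (SE 0.059, limma q = 1.71e-16). The other 6 strains had means of 40.9 to 97.6 cpm for Gm7336 and 0.0751 to 0.107 cpm for Gm3272. PWK/PhJ was thus the strain far from the rest in both. Of the stretches of 31 bases of Gm7336, 97.3% also occur in Gapdh, and 88.9% of those of Gm3272 occur in Gm7336. How the counting divided reads between these 3 genes was not tested. The glycolytic gene Gapdh itself was at 21.6, 16.6 and 17.3 cpm in CAST/EiJ and 13.2, 13.9 and 15.1 cpm in PWK/PhJ. Gm12918, whose stretches all occur in Rpl13, differed by -4.13, Gm26232, a small nuclear RNA gene, by 4.77, and 9330159M07Rik, a long non-coding RNA, by 4.05, and 100% and 47.4% of the stretches of these last 2 occur in other genes.

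In 29 genes, 10 of them protein-coding, all PWK/PhJ libraries were at or under 3 reads while the CAST/EiJ mean was at least 1 cpm, and in 24 genes, 6 of them protein-coding, the reverse held. Zfp605 was at 14.9, 15.1 and 17.5 cpm in CAST/EiJ and 0.0001, 0.0172 and 0.0143 cpm in PWK/PhJ, where 0.0001 is the amount the authors added to a value of 0. Against the mean of 3 reads over the PWK/PhJ libraries it was at least 341-fold higher in CAST/EiJ. Atp4b, a subunit of the gastric proton pump, was at 11.9, 10.8 and 14.1 cpm in CAST/EiJ and 0.0154, 0.0172 and 0.0143 cpm in PWK/PhJ, at least 264-fold higher, and Kcnmb3, a subunit of BK potassium channels, at 6.30, 8.53 and 9.03 cpm in CAST/EiJ and 0.0001, 0.0001 and 0.0001 cpm in PWK/PhJ, at least 171-fold higher. Zfp605 had means of 13.0 to 16.4 cpm in the other 6 strains, while Atp4b and Kcnmb3 were below 0.05 cpm in all 6, so that the strain that stood apart was PWK/PhJ for the first and CAST/EiJ for the others. In PWK/PhJ alone of the pair, the pseudogenes Gm11425, Gm10045 and Ftl2-ps were at least 207-fold, 185-fold and 175-fold higher, and 92.1% to 100% of their stretches of 31 bases occur in other genes.

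Genes past 2-fold were counted in windows along the genome, and whether they lay closer together than by chance was not tested. Of 609 windows of 2 Mb with at least 10 genes tested, 330 held no such gene, and the largest share was 70.4%, on chromosome 2 from base 176000001 to 178000000 of GRCm38, with 9 of 27 genes higher in CAST/EiJ and 10 higher in PWK/PhJ. This window holds a cluster of zinc finger genes. Gm14326 was at 17.2, 16.6 and 18.0 cpm in CAST/EiJ and 1.09, 1.19 and 1.19 cpm in PWK/PhJ, and Gm14296, in the same cluster, at 0.120, 0.375 and 0.287 cpm in CAST/EiJ and 29.3, 30.7 and 27.8 cpm in PWK/PhJ. They did not overlap between strains and went in opposite directions, and 91.6% and 61.7% of their stretches of 31 bases occur in other genes. Of the others in the cluster, Gm14325, Zfp970, Gm14403, Gm14419, Gm2004, Gm14322, Gm14409 and Gm14327 were also higher in CAST/EiJ, and 2210418O10Rik, Gm14295, Gm14305, Gm14308, Gm14410, Gm14412, Gm14434, Zfp967 and Zfp973 higher in PWK/PhJ, with 55.6% to 100% of their stretches in other genes. The next window, on chromosome 9 from 88000001 to 90000000, had 10 of 24 genes higher in CAST/EiJ and 1 higher in PWK/PhJ, the RNA gene Gm26461. Mthfsl, related to an enzyme of folate metabolism, was at 15.0, 14.4 and 13.9 cpm in CAST/EiJ and 1.99, 2.09 and 2.0 cpm in PWK/PhJ, and Trim43a and Trim43b, genes of the early embryo, differed by 1.35 and 1.94, with 63.7% and 64.6% of their stretches in other genes.

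Past 2-fold were 2.86% of protein-coding genes, 7.94% of long non-coding RNA genes, 7.04% of pseudogenes, 2.15% of genes of the annotation class TEC and 25.3% of the 79 genes of other types. By shared sequence, a split chosen after seeing the data, 2.50% of the 11422 genes with at most 10% of their stretches of 31 bases in other genes were past 2-fold, against 11.7% of the 1296 with over 50%. Their shares of calls without a fold limit were 44.4% and 47.7%. How the counting shared reads between such genes was not tested. Of the 276 genes at least 2-fold higher in CAST/EiJ, the CAST/EiJ mean alone lay outside the range of the other 6 strains for 109, the PWK/PhJ mean alone for 76, both for 78 and neither for 13. Of the 272 higher in PWK/PhJ, PWK/PhJ alone lay outside for 97, CAST/EiJ alone for 80, both for 69 and neither for 26. Zinc finger genes as a whole, 364 tested by symbol, had 79 higher in CAST/EiJ and 82 in PWK/PhJ (44.2% called, against 44.9% of all genes), with a median of 0.00, and 95 and 67 with median-ratio scaling.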

How the data were processed

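The authors trimmed reads, aligned them to GRCm38/mm10 with STAR and quantified them in Partek Flow by expectation-maximization, and the deposited values are cpm, each count divided by the library's total reads with 0.0001 added. Of the low values, 87.1% to 87.7% were whole reads within 0.02 reads, so no count test was used. No column of values was in no sample (0). Gene coordinates are the table's, whose stop column lies 1 base past the annotated end.

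Groups came from the strain labels. For genes whose mean reached 0.5 cpm, log2(cpm + 1) was fitted with limma 3.58.1 in R 4.3.3 (lmFit, eBayes with a trend, two-sided), Storey q-values were computed from its p-values, and the code was tested on simulated data. Differences are CAST/EiJ minus PWK/PhJ. Floors and folds from 3 reads cover counting error only.

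Named genes were, among calls without overlap, the 8 protein-coding genes with the largest difference in each direction (mean of at least 5 cpm in the higher strain, no Gm or Rik symbols), the 3 with the largest moderated statistic, the 4 most abundant past 2-fold, the called members with the 3 largest differences and the most abundant member of each list, the 2 largest non-coding genes, the 3 highest genes at the floor in the other strain, the genes of 2 windows, and Xist with Y-linked genes. Some genes picked by this rule are not reported here. Members and lists were chosen with earlier results of these data known. Shared sequence was counted as stretches of 31 bases in transcripts of the GENCODE annotation.

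Alternatives were another pseudocount, no or a higher filter, median-ratio or quantile scaling, all 24 libraries, no trend, Benjamini-Hochberg adjustment, another q limit, X and Y kept, and each library left out.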

Additional observations from a re-analysis of the deposited data

How the results depend on the processing

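No paired analysis was run, because the labels name no pairs of libraries. The replicate numbers used here follow the order of the library codes and pair nothing. A fit with a block for Xist and Y-linked expression was not run. Of 149 called genes that the naming rule picked, 131 stayed called in the same direction under all alternatives that tested them, of 16 in all, 18 lost the call under at least 1, and 0 turned direction. Rp1, not called in the main fit, was called at -0.3010 with quantile normalization, in the opposite direction. Leaving out each library in turn gave 5613 to 6369 called genes and 534 to 565 past 2-fold. Unless the construction of an alternative shows it, the cause of a change was not tested.

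A minimum mean of 5 cpm, which tested 8907 genes, gave 4047 calls, 4029 of them among the 7046, 1523 higher in CAST/EiJ, 2524 in PWK/PhJ, and 242 past 2-fold, 123 and 119 by direction. A pseudocount of 0.1, which shrinks low genes less, gave 1053 past 2-fold, 492 higher in CAST/EiJ and 561 in PWK/PhJ.

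List counts that moved over 1.5 times follow, with the report's count in brackets. The minimum of 5 cpm leaves fewer genes to count. Higher in CAST/EiJ it left BMP and TGF-beta 3 (6), Müller glia 2 (4), clock 1 (2), ribosomal proteins 20 (36), dopamine 1 (2), glutathione 1 (5), neuropeptides 0 (1) and pigment epithelium 0 (1). Higher in PWK/PhJ it left BMP and TGF-beta 5 (9), MHC 1 (5), amacrine 4 (8), bipolar identity 1 (4), ribosomal proteins 12 (23), vessels 1 (6), glutathione 4 (10), immediate early 2 (5), lens 3 (14), microglia 1 (4), neuropeptides 1 (5), pigment epithelium 0 (4) and Zfp 52 (82).

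Without a filter the counts higher in CAST/EiJ were methylation 1 (3), MHC 4 (2), ON bipolar 2 (4), clock 0 (2), protocadherins 7 (11), dopamine 1 (2), glycolysis 1 (6), horizontal 0 (1), mitochondrial genome 5 (10), ribbon synapse 0 (2), neuropeptides 0 (1) and rods 4 (8). Those higher in PWK/PhJ were methylation 3 (7), clock 4 (12), protocadherins 11 (17), dopamine 3 (5), vessels 2 (6), immediate early 2 (5), microglia 7 (4), mitochondrial genome 1 (2), outer segment 1 (2), ribbon synapse 5 (8), ganglion cells 9 (14) and pigment epithelium 2 (4).

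With all 24 libraries in the fit, CAST/EiJ had methylation 1 (3), Müller glia 2 (4), clock 1 (2), glutathione 1 (5) and mitochondrial genome 6 (10), and PWK/PhJ had glycolysis 3 (5), immediate early 2 (5), lens 0 (14) and pigment epithelium 0 (4). Benjamini-Hochberg adjustment gave CAST/EiJ methylation 1 (3), ON bipolar 2 (4), amacrine 1 (3), clock 1 (2), dopamine 1 (2) and ribbon synapse 0 (2), and PWK/PhJ methylation 2 (7), clock 7 (12), vessels 2 (6), immediate early 3 (5), outer segment 1 (2) and pigment epithelium 2 (4). Without a trend in the spread, CAST/EiJ had ON bipolar 2 (4), clock 1 (2) and ribbon synapse 0 (2), and with X and Y kept clock 1 (2). A q limit of 0.05, which calls more genes, gave CAST/EiJ clock 4 (2), protocadherins 18 (11), ribbon synapse 5 (2) and pigment epithelium 2 (1), and PWK/PhJ immediate early 9 (5), outer segment 5 (2) and rods 1 (0).

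Median-ratio scaling gave PWK/PhJ methylation 2 (7), clock 7 (12), vessels 3 (6) and outer segment 1 (2), and CAST/EiJ amacrine 5 (3) and ribbon synapse 4 (2). Quantile normalization gave PWK/PhJ methylation 2 (7), clock 5 (12), vessels 3 (6), immediate early 3 (5), outer segment 4 (2) and rods 1 (0), and CAST/EiJ amacrine 5 (3), ribbon synapse 4 (2) and rods 5 (8).

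Leaving out each library in turn, counts higher in CAST/EiJ ranged over 1 to 3 for methylation, 1 to 4 for ON bipolar, 1 to 3 for amacrine, 0 to 2 for clock, 7 to 11 for protocadherins (lowest without CAST/EiJ replicate 1), 1 to 2 for dopamine, 3 to 5 for glutathione, 0 to 1 for horizontal, 0 to 2 for ribbon synapse, 0 to 1 for neuropeptides, 1 to 3 for pigment epithelium and 5 to 9 for rods (lowest without CAST/EiJ replicate 1). Counts higher in PWK/PhJ ranged over 3 to 7 for methylation, 3 to 6 for MHC, 0 to 2 for blood (2 without PWK/PhJ replicate 2), 7 to 9 for clock (lowest without CAST/EiJ replicate 2), 2 to 6 for vessels (lowest without PWK/PhJ replicate 2 or CAST/EiJ replicate 1), 2 to 9 for immediate early, 1 to 2 for mitochondrial genome, 1 to 3 for outer segment and 2 to 4 for pigment epithelium.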

Other observations

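Retinal genes on the X chromosome were outside the comparison, and their values come from a fit that kept X and Y. Arr3, the cone arrestin, was at 27.5, 28.4 and 27.2 cpm in CAST/EiJ and 65.1, 61.7 and 60.6 cpm in PWK/PhJ. Every PWK/PhJ library was above every CAST/EiJ library, with a difference of -1.14 (SE 0.049, limma q = 7.41e-10). Opn1mw, the medium-wavelength cone opsin, was at 14.8, 14.3 and 16.2 cpm in CAST/EiJ and 18.7, 18.0 and 16.5 cpm in PWK/PhJ, with a difference of -0.22 (SE 0.065, limma q = 0.00497). Nyx, which encodes nyctalopin of ON bipolar cells, was at 4.01, 3.57 and 4.48 cpm in CAST/EiJ and 9.41, 10.5 and 9.34 cpm in PWK/PhJ. Its groups did not overlap, and its difference was -1.10 (SE 0.08, limma q = 9.54e-08). Syp, the vesicle protein synaptophysin, had a difference of -0.19 (SE 0.054, limma q = 0.00319) in the same direction. Gucy2f, a photoreceptor guanylate cyclase, went the other way, by 0.15 (SE 0.051, limma q = 0.00971), and Cacna1f, the calcium channel of photoreceptor synapses, did not pass, with 0.07 (SE 0.069, limma q = 0.134).

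Kdm6a, a histone demethylase that escapes X inactivation, was at 27.9, 26.5 and 51.8 cpm in CAST/EiJ and 24.8, 42.6 and 24.5 cpm in PWK/PhJ. It was highest in CAST/EiJ replicate 3 and PWK/PhJ replicate 2, the libraries with high Xist. The lens list sum also differed within other strains, with 8.20, 278 and 14.7 cpm in the 3 C57BL/6J libraries.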
